A study of Homo sapiens with 4 samples.

Results

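The microRNAs (miRNAs) described here are 10 mature products of a pair of embryonic clusters, the miR-302 cluster, which also encodes miR-367, and the miR-371 to miR-373 cluster, out of 1474 miRNAs with at least 1 count in the series. They were taken from a list of names: hsa-miR-302a-3p, hsa-miR-302b-3p, hsa-miR-302c-3p, hsa-miR-302d-3p, hsa-miR-302a-5p, hsa-miR-302c-5p and hsa-miR-367-3p of the first cluster, and hsa-miR-371a-5p, hsa-miR-372-3p and hsa-miR-373-3p of the second. The list was drawn up because these miRNAs had been seen in the HCT116-R library and not in the others, so their differences between libraries are given as a description, without a test. The counts went partly against that reason, since 4 of the 10 also had counts in HCT116. Of the 10, 8 had at least 1 count in HCT116-R, 4 in HCT116, 1 in RKO-R and 0 in RKO. Of all 1474 miRNAs, 1198, 1105, 992 and 1006 were listed in these libraries, in the same order. The 8 of 10 in HCT116-R was thus near the share over all miRNAs. MiR-367-3p and miR-373-3p were listed in no library.

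The libraries come from HCT116 and RKO, established lines of human colorectal cancer cells, and from an acquired radioresistant derivative of each, named HCT116-R and RKO-R. Each derivative had received X-ray fractions of 4 Gy adding up to 40 Gy, and had then recovered for 3 weeks or longer. Small RNA of 18 to 30 nt was sequenced with 1 library per line, so no difference has a replicate check, and selection, culture and library preparation cannot be told apart. Library totals ranged from 6818497 counts in HCT116-R to 7140460 in RKO, and levels are given in counts per 1000000 of the library total (CPM) with exact 95% Poisson intervals, which cover counting error only. A miRNA missing from a library has 0 counts there, which allows a level of up to 3 counts, or between 0.420 CPM in RKO and 0.440 CPM in HCT116-R. Of 7 intestinal epithelial miRNAs, 6 or 7 were listed in every library. MiR-200c-3p, an epithelial marker, had 286432 counts in HCT116-R and 291469 in HCT116, but 1426 in RKO-R and 649 in RKO. In the same order miR-141-3p had 8320, 6630, 41 and 17 counts. The RKO libraries did not lack the rest, since miR-200a-3p, miR-200b-3p, miR-192-5p and miR-194-5p each had 444 counts or more in every library. MiR-215-5p had 3 counts in HCT116-R and 0 elsewhere.

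A miRNA guides the Argonaute protein to messenger RNAs that pair with its seed, bases 2 to 8 from the 5' end. The miR-302 cluster is among the most abundant miRNA clusters of human embryonic stem cells, where the pluripotency factors OCT4, SOX2 and NANOG drive its transcription and its products promote passage through the cell cycle. The miR-371 to miR-373 cluster is the human relative of the mouse miR-290 cluster, and both human clusters are used as serum markers of malignant germ cell tumors. Differentiated epithelial cells normally hold little of either.

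Mature sequences are shown because the seeds decide which members belong together. All 10 names were matched in RefSeq (GRCh38.p14), and the seed is in capitals.
hsa-miR-302a-3p: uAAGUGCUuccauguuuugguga
hsa-miR-302b-3p: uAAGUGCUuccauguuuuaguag
hsa-miR-302c-3p: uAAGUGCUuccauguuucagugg
hsa-miR-302d-3p: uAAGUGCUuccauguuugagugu
hsa-miR-372-3p: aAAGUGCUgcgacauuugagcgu
hsa-miR-373-3p: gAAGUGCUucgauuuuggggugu
hsa-miR-367-3p: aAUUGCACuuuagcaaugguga
hsa-miR-302a-5p: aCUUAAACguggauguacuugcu
hsa-miR-302c-5p: uUUAACAUggggguaccugcug
hsa-miR-371a-5p: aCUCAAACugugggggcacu
The 4 miR-302 3p arms, miR-372-3p and miR-373-3p have the same seed, AAGUGCU. MiR-367-3p has another, AUUGCAC, although it is encoded in the same cluster as miR-302. The 4 miR-302 3p arms share their first 17 bases and differ from each other at 2 or 3 of 23 bases, all near the 3' end. A read that is short at this end cannot be given to a single member, and how the authors' counting treated such reads is not given in the sources used here. Values of the single 3p arms are therefore less certain than their sum.

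The 5 hairpins of the first cluster lie within 684 bases of the minus strand of chromosome 4 (GRCh38, GENCODE release 29, chr4:112647874-112648557), in the order MIR302B, MIR302C, MIR302A, MIR302D and MIR367 of transcription. They lie within an intron of the protein-coding gene LARP7, which runs on the opposite strand, and within the non-coding host transcript AC106864.1 on their own strand, where MIR302B overlaps an exon and the other 4 are intronic. The 3 hairpins of the second cluster lie on the plus strand of chromosome 19 within 1099 bases (chr19:53787675-53788773). MIR371A and MIR372 overlap exons of the opposite-strand lincRNA AC008753.3, MIR371A also overlaps the opposite-strand hairpin MIR371B, and no other gene is annotated over MIR373.

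In HCT116-R the members of the miR-302 cluster were a low but well counted group. Their sum was 1154 counts in HCT116-R, 17 in HCT116, 1 in RKO-R and 0 in RKO. The first of these is 169 CPM (95% interval 160 to 179), and the next are 2.49 CPM (1.45 to 3.99) and 0.145 CPM (0.00366 to 0.806). HCT116-R stood far above the other 3 libraries, and its interval overlapped none of theirs. The sum was 67.9-fold higher in HCT116-R than in HCT116 (exact 95% interval of the ratio 42.2 to 117). With RKO taken at the floor of 3 counts the ratio was 403, which leaves out counting error. With the single count in RKO-R raised to the same floor the ratio was 390. Over the unraised count it was 1170, with an interval from 209.6 to 46253. At this level the cluster held 0.0169% of all counts in HCT116-R.

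MiR-302a-3p, the most abundant member, had 486 counts in HCT116-R, 7 in HCT116, 1 in RKO-R and 0 in RKO. MiR-302b-3p had 369, 6, 0 and 0 counts in the same order. HCT116-R was the highest library for both by a wide margin. In HCT116-R they reached 71.3 CPM (65.1 to 77.9) and 54.1 CPM (48.7 to 59.9), ranks 173 and 187 of the 1198 miRNAs listed there. Their ratios to HCT116 were 69.5 (interval 33.5 to 174) and 61.5 (28.0 to 169).

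In that order, miR-302d-3p had 202, 3, 0 and 0 counts, and miR-302c-3p had 91, 1, 0 and 0. Both were again detected in HCT116 and HCT116-R and absent from the RKO and RKO-R tables. In HCT116-R they reached 29.6 CPM (25.7 to 34.0) and 13.3 CPM (10.7 to 16.4), and their ratios to HCT116 were 67.4 (22.7 to 329) and 91.1 (15.9 to 3636). The intervals of the 4 ratios overlapped. The order of levels in HCT116-R was miR-302a-3p, miR-302b-3p, miR-302d-3p and miR-302c-3p, and no neighbours in it had overlapping intervals.

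**Figure D1:**
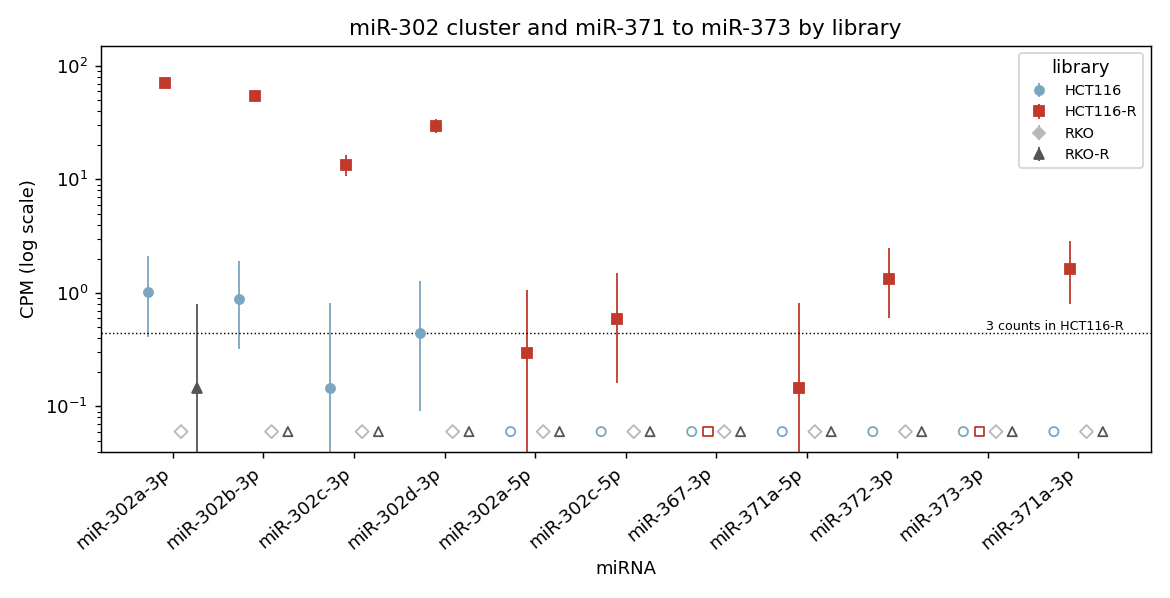
Level of each member, and of miR-371a-3p, in the 4 libraries in CPM on a log scale, with exact 95% Poisson intervals of the counts (counting error only). Open symbols at the bottom are libraries with 0 counts, and the dotted line marks 3 counts in HCT116-R. The 4 miR-302 3p arms lie between 13.3 and 71.3 CPM in HCT116-R and at or below 1.03 CPM in HCT116.

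The proportions of the miR-302 3p arms describe how the counts of the cluster divided. In HCT116-R, miR-302a-3p made up 42.3% of the 1148 counts of the 4 arms (95% Wilson interval 39.5 to 45.2), miR-302b-3p 32.1% (29.5 to 34.9), miR-302d-3p 17.6% (15.5 to 19.9) and miR-302c-3p 7.93% (6.50 to 9.63). In HCT116 the same arms made up 41.2% (21.6 to 64.0), 35.3% (17.3 to 58.7), 17.6% (6.19 to 41.0) and 5.88% (1.05 to 27.0) of 17 counts. The order was the same in both libraries, and each interval in HCT116 contained the value in HCT116-R. With 17 counts the intervals are wide, so a moderate difference in composition was not detectable at this depth.

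**Figure D2:**
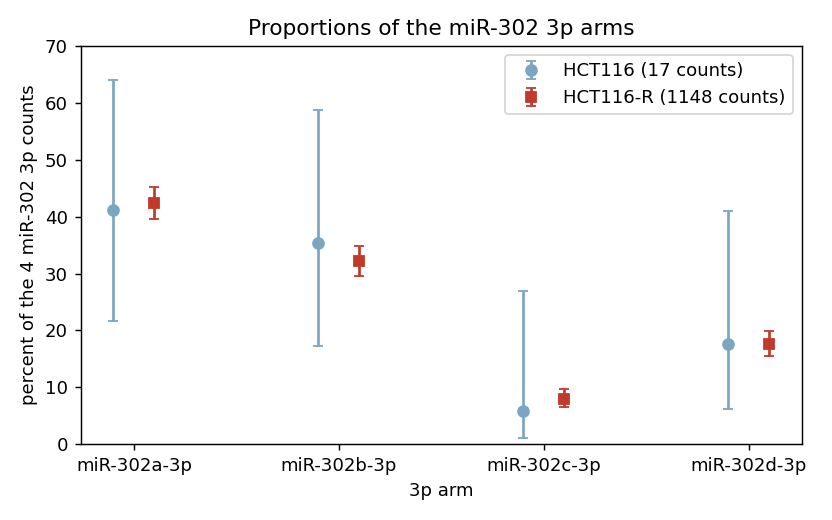
Percent of the summed miR-302 3p counts held by each arm in HCT116 (17 counts) and HCT116-R (1148 counts), with 95% Wilson intervals. The arms have the same order in both libraries, from 42.3% for miR-302a-3p to 7.93% for miR-302c-3p in HCT116-R. The intervals of HCT116 are wide.

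MiR-367-3p did not follow miR-302. It is processed from the last hairpin of the same primary transcript and had 0 counts in all 4 libraries, as did miR-367-5p. The files list only miRNAs with a count, so a name missing from all of them may also not have been among those counted, which holds for miR-373-3p too. If miR-367-3p was counted, its 0 beside the 1154 counts of the cluster in HCT116-R is a share of 0.260% at the floor. The upper Wilson limit of that share is 0.332%. Taken against the floor of 3 counts, the summed miR-302 3p arms were 383-fold higher than miR-367-3p, and the least abundant of them, miR-302c-3p, was 30.3-fold higher. These ratios compare counts of different miRNAs within 1 library, and how evenly they are ligated and counted was not measured.

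Along the transcript, the 3p counts in HCT116-R were 369 for MIR302B, 91 for MIR302C, 486 for MIR302A, 202 for MIR302D and 0 for MIR367. They did not fall steadily with distance from the first hairpin. MIR302C, 127 bases from the start of MIR302B, had fewer counts than MIR302A and MIR302D, at 306 and 486 bases. MIR367, at 616 bases, was the only hairpin of the 5 without a count.

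**Figure D3:**
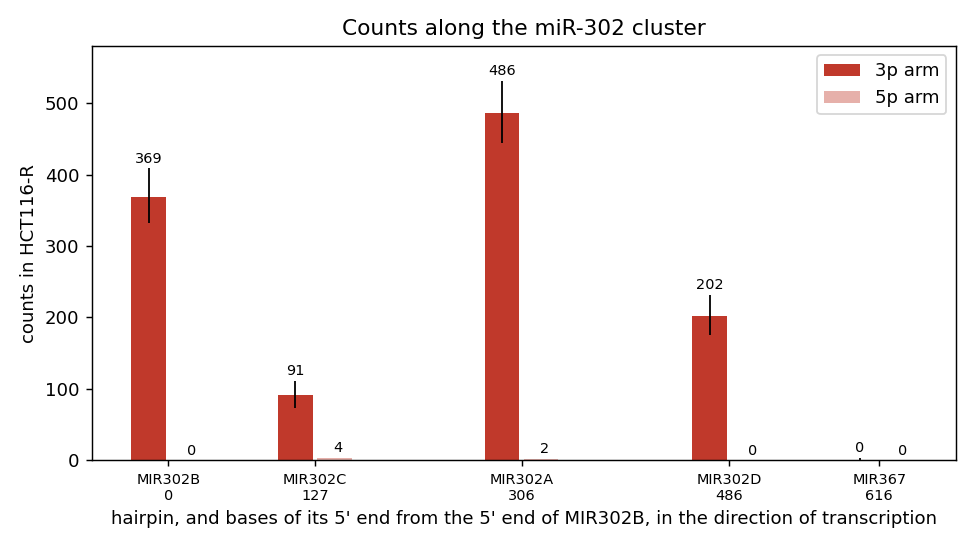
Counts of the 3p and 5p arms in HCT116-R for the 5 hairpins of the miR-302 cluster, placed by the distance in bases of their 5' ends from that of MIR302B. Lines are exact 95% Poisson intervals of the 3p counts. MIR302A has the highest bar with 486 counts, and MIR367 has none.

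Arm use is given as a description, since the 5p arms on the list were those with counts in HCT116-R. The 5p arm made up 0.410% of the 488 counts of MIR302A in HCT116-R (2 counts, 95% Wilson interval 0.112 to 1.48) and 4.21% of the 95 counts of MIR302C (4 counts, 1.65 to 10.3). The intervals did not overlap, although the 5p counts are few. MiR-302b-5p and miR-302d-5p were not listed, and 0 of 369 and 0 of 202 counts are 5p shares of 0.813% and 1.49% at the floor. Their upper Wilson limits are 1.03% and 1.87%. Among 159 hairpins with both arms named and at least 90 counts in HCT116-R, which include these 4 since the limit was set after their counts had been seen, the less used arm had a median share of 1.22%, and 77 hairpins had a share below 1%. The strong use of the 3p arm in miR-302 was thus shared with many other hairpins of the library. MiR-302a-5p and miR-302c-5p had no counts in the other 3 libraries.

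The miR-371 to miR-373 members stayed near the limit of detection. MiR-372-3p had 9 counts in HCT116-R and 0 in each of the other libraries, a level of 1.32 CPM (0.604 to 2.51). MiR-371a-5p had 1 count in HCT116-R and 0 elsewhere, and miR-373-3p had 0 in all. Only HCT116-R held any count of this cluster.

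The sum of these 3 members was 10 counts in HCT116-R, or 1.47 CPM (0.703 to 2.70), and 0 in HCT116, RKO and RKO-R. Against the floor of 3 counts HCT116-R was 3.34-fold higher than its parental library, 3.49-fold higher than RKO and 3.38-fold higher than RKO-R. These ratios leave out the counting error of the 10 counts. MiR-371a-3p, the other arm of MIR371A and not on the list, had 11 counts in HCT116-R and 0 elsewhere. With it the sum was 21 counts, 3.08 CPM (1.91 to 4.71), which exceeded the floor in HCT116 7.005-fold. The 5p arm made up 8.33% of the 12 counts of MIR371A (1.49 to 35.4). In HCT116-R the summed miR-302 3p arms had 127.6 times the counts of miR-372-3p, which carries the same seed.

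MIR371A lies opposite MIR371B, and whether counting used strand is not given in the sources used here. In another antisense pair, miR-423-5p had 95 counts in HCT116-R beside 13716 of its antisense partner miR-3184-3p, against 20749 and 38 in the parental library. The RKO lines had the same reversal, with 10 and 13335 counts in RKO-R against 11237 and 50 in RKO. Whether the radioresistant and parental libraries were counted in the same way was not tested. No product of MIR371B was listed in any library, and the hairpins of the miR-302 cluster have no antisense miRNA in the annotation.

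A miRNA was called higher in HCT116-R when its CPM was at least 4-fold that of the other library, with counts under 3 raised to 3. Against HCT116, 4 of the 8 members with a count were called, beside 2.87% of all 1322 miRNAs with a count in the pair. Against RKO and RKO-R the same 4 were called, beside 13.8% and 14.6% of all miRNAs, so a 4-fold difference from the RKO lines is common in this library. Against all 3 libraries at once, 4 members were called and 1.36% of 1474 miRNAs. The called members were the 4 miR-302 3p arms. Over the 8 members, the median log2 ratio of HCT116-R to HCT116, with the same floor, was 3.25, against 0.00 over all miRNAs of the pair. This median falls in a gap and describes no single member. With the floor, the 4 miR-302 3p arms were between 30.4-fold and 69.5-fold higher in HCT116-R than in HCT116. Each of the other members with a count was below 4-fold. Since the members were chosen on these libraries, nothing further is read from these counts.

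**Figure D4:**
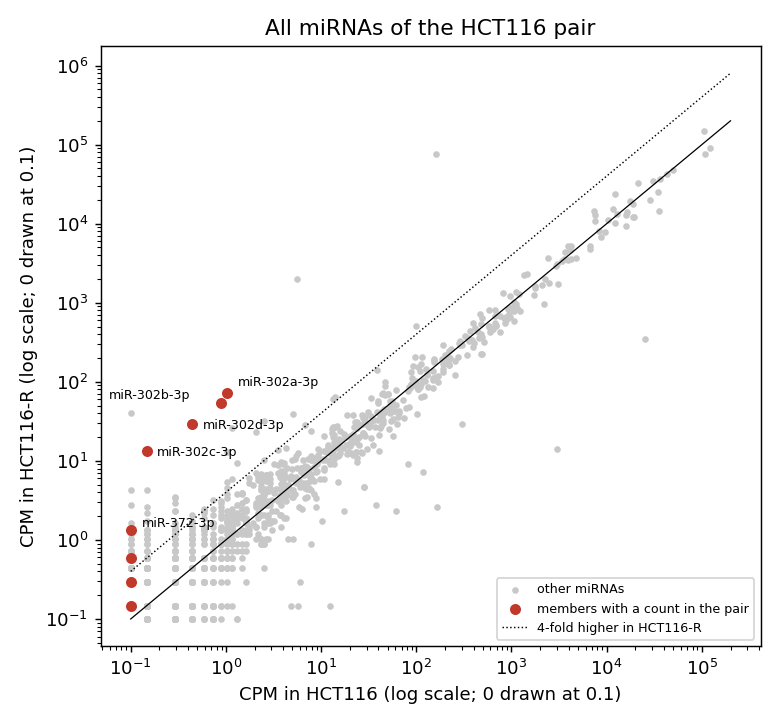
CPM of all 1322 miRNAs with a count in HCT116 (horizontal) or HCT116-R (vertical), both on log scales with 0 drawn at 0.1. The solid line marks equal levels and the dotted line a 4-fold difference, drawn without the floor of 3 counts that keeps miR-372-3p from being called. The 4 miR-302 3p arms lie above the dotted line at low levels in HCT116.

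Of all 1474 miRNAs, 110 (7.46%) were listed in HCT116-R only. Among the members, miR-302a-5p, miR-302c-5p, miR-371a-5p and miR-372-3p, with 2, 4, 1 and 9 counts, were of this kind. The 4 miR-302 3p arms were not, but between 98.4% and 98.9% of their summed CPM over the 4 libraries lay in HCT116-R.

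Seed families show how much the members add to what the cells already hold. The seed AAGUGCU was carried by 5 listed miRNAs, all of them members, out of 12 in the reference. Its sum was 1157 counts in HCT116-R, 17 in HCT116, 1 in RKO-R and 0 in RKO, with no other miRNA of this seed among the 1313 of 1474 listed names that were matched in RefSeq. The miR-17 family has the seed AAAGUGC, in which the same bases are shifted by 1 position, as in miR-93-5p, its most abundant member in all 4 libraries.
hsa-miR-302a-3p: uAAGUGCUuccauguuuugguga
hsa-miR-93-5p: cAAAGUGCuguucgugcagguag
This family, which promotes proliferation, summed to 36730 counts in HCT116-R, 49461 in HCT116, 61746 in RKO-R and 84494 in RKO. In HCT116-R it had 31.7 times the counts of the AAGUGCU seed, which made up 3.05% of both seeds together. In HCT116 that share was 0.0344%.

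The seed of miR-367-3p is shared with miR-92a-3p and miR-363-3p.
hsa-miR-367-3p: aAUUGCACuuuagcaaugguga
hsa-miR-92a-3p: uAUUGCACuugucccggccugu
hsa-miR-363-3p: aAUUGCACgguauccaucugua
MiRNAs with this seed summed to 277534 counts in HCT116-R, 245757 in HCT116, 284551 in RKO-R and 427679 in RKO, without a count of miR-367-3p. MiR-92a-3p led them, with 235381 counts in HCT116-R. MiR-363-3p, of a cluster on the X chromosome, had 414 counts in HCT116-R, 91 in HCT116 and 0 in both RKO libraries.

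**Figure D5:**
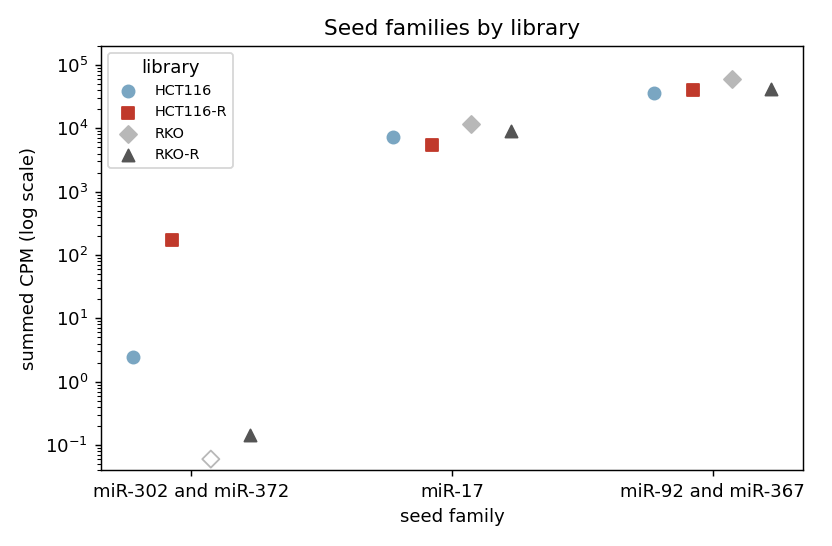
Summed CPM on a log scale of all listed miRNAs with the seed AAGUGCU (of miR-302 and miR-372), AAAGUGC (of miR-17) and AUUGCAC (of miR-92 and miR-367) in the 4 libraries. The open symbol is RKO with 0 counts. HCT116-R stands apart in the first family, at 170 CPM against 2.49 CPM in HCT116.

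The C19MC cluster, a primate-specific miRNA cluster of placenta, lies next to miR-371 to miR-373 on chromosome 19, and some of its products carry related seeds. Of its products, 20 names were listed in at least 1 library. Names with identical sequences and identical counts were counted once, which left 14. Their sum was 53 counts in HCT116-R, 3 in HCT116, 93 in RKO-R and 29 in RKO. RKO-R was thus the highest library here and HCT116-R was not, unlike for the members of the miR-302 and miR-371 to miR-373 clusters. As for those members, HCT116-R stood above HCT116. It also listed the most products, 11 of the 14, against 3 in HCT116, 4 in RKO and 7 in RKO-R. MiR-522-3p was the leading product in HCT116-R, RKO and RKO-R with 29, 17 and 47 counts, and no other product had more than 4 counts in HCT116-R.

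Host gene sequence is described for the 4 miR-302 3p arms, whose listing for counts in HCT116-R partly fixed their common pattern. RefSeq gives the host gene MIR302CHG, on the minus strand, a pair of start sites, and the window around each, from 250 bases before to 50 after, was searched for ATGCAAAT, the octamer bound by POU proteins such as OCT4, on both strands. The motif was chosen after the sequence had been seen. It occurred once, 202 bases before the upstream start (GRCh38.p14, chr4:112650238-112650261), in capitals below.
MIR302CHG octamer: tattctacATGCAAATtgttactg
Of 35116 promoters of the same length, 623 (1.77%) held the octamer, while 2 windows of MIR302CHG were searched. Since the motif was picked with the sequence in view, this share does not measure how unusual the match is. The match is a description of the sequence, and no measurement of the host transcript or of any factor was made.

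Markers of other cell types were counted beside the members. Since the miR-302 arms were chosen for their counts in HCT116-R, the lists are given without a comparison with them. The placental and embryonic cluster C14MC had 12 of 12 markers listed in HCT116-R and 11 in HCT116, with sums of 84.5 and 62.4 CPM, against 3.08 CPM in RKO and 5.35 CPM in RKO-R. Neuronal markers summed to 12.3 CPM in HCT116 and 3.67 CPM in HCT116-R (4 and 5 of 5 listed), blood markers to 43.8 and 38.1 CPM (5 and 6 of 6), muscle markers to 106 and 81.4 CPM (5 and 3 of 6), mesenchymal markers to 371 and 162 CPM (5 of 5 in both) and endothelial markers to 4141 and 3584 CPM (2 of 2 in both). A list sum can hide members that differ. Of the blood markers, miR-142-3p had 66 counts in HCT116-R and 26 in HCT116, while miR-223-3p had 6 and 54. MiR-499a-5p held 547 of the 555 muscle counts in HCT116-R. Whether a small number of cells with a high level or all cells with a low level gave the counts cannot be told apart in these bulk libraries, and the part of the marker lists in the result was not tested.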

How the data were processed

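Small RNA libraries with unique molecular identifiers were made for the 4 lines, 1 library each, and read on a BGISEQ-500 sequencer. The deposited files hold the authors' raw counts of reads per mature miRNA, without normalization, and list miRNAs with at least 1 count. The submitters' processing notes name Bowtie2 and hg38. The counter, the miRNA annotation, the use of strand and the collapsing of identifiers are not given in the sources used here.

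Missing miRNAs were given 0 counts and counts were scaled to CPM by the library total. Intervals were exact Poisson for counts, Wilson for shares and exact conditional for ratios. A ratio against 0 counts was taken against a floor of 3 counts, and no interval of the ratio is given. No p-value was computed, because each line had 1 library and the members were chosen on these libraries. The edgeR test named in the study's methods was not run here.

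The members and lists were chosen with earlier results of these data known. The named miRNAs were all members, the other products of their hairpins, the leading members of the seed families and of C19MC, and miRNAs with at most 3 counts in HCT116, RKO and RKO-R and at least 20 in HCT116-R. MiR-200c-3p, miR-423-5p, miR-3184-3p, miR-490-3p and miRNAs of the X chromosome cluster were chosen after their values were seen. So were the single intestinal epithelial, blood and muscle miRNAs named beside their lists. C19MC was taken as miR-498, miR-512 to miR-527, miR-1283 and miR-1323 without names placed on other chromosomes. Of the 1474 names, 1313 were matched in the RefSeq miRNA table (GRCh38.p14). Hairpins came from GENCODE release 29 (GRCh38).

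The 4-fold call was tested on simulated data with Poisson noise only. Changes were placed only in miRNAs well counted in the other library, where the members had few counts or none. Recovery was therefore not checked at the levels of the members. Alternatives were TMM factors (edgeR 4.0.16), size factors of DESeq2 1.42.0, totals without the 10 most abundant miRNAs, other floors and folds, a filter of 10 counts, and every product of the hairpins. Python 3.11.15, pandas 2.3.3, scipy 1.17.1, matplotlib 3.10.9 and R 4.3.3 were used.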

Additional observations from a re-analysis of the deposited data

How the results depend on the processing

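Of 69 alternatives, 51 left a value within its interval or a count of members within 1.5 times, 18 moved it and 0 reversed a direction. For a ratio against the floor, the interval was that of the count in HCT116-R alone. Some of the 51 could not change a value. The products added for the miR-302 hairpins had 0 counts, and floors of 1 and 5 lie below the 17 counts of this cluster in HCT116. The members were chosen for their counts in HCT116-R, so the absence of a reversal is not a check of the direction. The level of the miR-302 cluster sum in HCT116-R was 155 CPM with DESeq2 size factors and 434 CPM without the 10 most abundant miRNAs in the total. Its ratio to RKO was 443 with TMM factors, and 1208 and 242 with floors of 1 and 5 counts. Its ratio to RKO-R, with the single count there raised to the floor of 3, was 390, and became 364 with TMM factors, 298 with DESeq2 size factors, 362 without the 10 most abundant miRNAs, and 1170 and 234 with floors of 1 and 5. The miR-371 to miR-373 sum was 3.76 CPM without the 10 most abundant miRNAs and 3.08 CPM with every product of the hairpins. Its ratios to HCT116, RKO and RKO-R were 10.01, 10.47 and 10.14 with a floor of 1, and 7.005, 7.33 and 7.097 with every product. With a floor of 5 these ratios fell to 2.001, 2.094 and 2.028. With DESeq2 size factors the ratio to RKO-R fell to 2.587. These lower values stayed within the wide interval of the count in HCT116-R. These shifts follow from the floor, the total or the miRNAs summed. The 4 calls among the members became 5 at a fold of 2 and 6 with a floor of 1, in each comparison. The share called among all miRNAs rose as well, to 11.5%, 22.2% and 26.2% at a fold of 2 and to 7.41%, 20.9% and 22.8% with a floor of 1, against HCT116, RKO and RKO-R. No member of the second cluster reached 10 counts, so a sum under that filter was not possible. No group has a second library to leave out. A fit of the radioresistant against the parental libraries, paired by line, was not made, since the members were chosen on these libraries. Depth limits every member other than the 4 miR-302 3p arms, since none had more than 9 counts.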

Other observations

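The pattern of the members over the 4 libraries was also seen outside them. It was taken as at most 3 counts in each of HCT116, RKO and RKO-R and at least 20 in HCT116-R. MiR-490-5p had 272 counts in HCT116-R and 0 in the other libraries, more than miR-302d-3p with 202, while miR-490-3p, from the other arm of its hairpin, had 2 counts in HCT116-R and 0 elsewhere. MiR-4463 had 29 counts in HCT116-R and 1 in RKO, and miR-642a-3p had 23 in HCT116-R and 2 in HCT116. MiR-30c-2-3p had 20 counts in HCT116-R, with 2, 3 and 3 in HCT116, RKO and RKO-R. MiR-302d-3p and miR-302c-3p met the same limits, and miR-302a-3p and miR-302b-3p did not, because of 7 and 6 counts in HCT116. By the 4-fold call against all 3 libraries at once, 20 of the 1474 miRNAs were called, and only 4 of these were members.

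The cluster of miR-106a and miR-363 on the X chromosome, chosen after its values had been seen, holds miRNAs with the seeds of the miR-17 family and of miR-367. MiR-20b-5p had 41 counts in HCT116-R and 12 in HCT116, and miR-363-3p had 414 and 91, which were 3.42-fold and 4.55-fold higher in HCT116-R by CPM. Neither was listed in RKO or RKO-R. MiR-18b-5p had 5 counts in HCT116-R and 2 in RKO-R, and miR-106a-5p had 2, 3, 0 and 1 counts in HCT116, HCT116-R, RKO and RKO-R.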
